A study of Mus musculus with 6 samples.

Results

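Foxf2 and 7 related genes of the forkhead family were followed in the whole brain of E18.5 mouse embryos. The 8 genes are Foxf2, Foxf1, Foxc1, Foxc2, Foxq1, Foxs1, Foxd1 and Foxl2, and they were chosen by name as vascular and mesenchymal members of the family. Every probe set of the array that was annotated to 1 gene, that gene being among the 8, was taken. This gave 13 probe sets of 45037 and 8 genes of the 18193 with a singly named probe set. RNA was compared between 3 wild-type and 3 Foxf2 mutant brains, 1 Affymetrix array each, from embryos of C57/bl6 background, and both groups are of the same age, with no treatment named. The allele, its zygosity and whether an array held the RNA of 1 embryo or several are not given in the sources used here. The p-values therefore measure the spread between these 6 samples.

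Forkhead proteins are transcription factors that bind DNA through a winged-helix domain shared by the whole family, while the rest of each protein differs. Several members are made in the mesenchyme, the loose connective tissue from which meninges, vessel walls and organ stroma form. Foxf2 is known in the brain from pericytes, the contractile cells that wrap capillaries, and from capillary endothelium. Foxc1 is known from meninges and mural cells, and its loss disturbs both. Such cells make up a small part of a whole brain, so their transcripts are diluted by those of neurons and glia, and in RNA of whole tissue fewer cells of a type and less RNA per cell cannot be told apart.

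Some of the genes lie side by side in the mouse genome. In the RefSeq gene order Foxq1, Foxf2, Foxc1 and then Gmds follow each other on chromosome 13, and Foxf1, Mthfsd, Foxc2 and Foxl1 follow each other on chromosome 8. The start regions of the mutated gene and of its neighbour Foxc1 are shown because they are neighbours, with Foxf2 reading lower in every mutant brain and Foxc1 overlapping between the groups; the difference between the genes was not tested. RefSeq promoter windows of build GRCm38.p6 were found for 4 of the 8 genes, and each runs from 250 bases before to 50 bases after the start. The windows of Foxf2 (chr13:31625566-31625865, plus strand) and Foxc1 (chr13:31806396-31806695, plus strand) are given 5′ to 3′, with GC boxes (GGGCGG on either strand) in capitals.
Foxf2: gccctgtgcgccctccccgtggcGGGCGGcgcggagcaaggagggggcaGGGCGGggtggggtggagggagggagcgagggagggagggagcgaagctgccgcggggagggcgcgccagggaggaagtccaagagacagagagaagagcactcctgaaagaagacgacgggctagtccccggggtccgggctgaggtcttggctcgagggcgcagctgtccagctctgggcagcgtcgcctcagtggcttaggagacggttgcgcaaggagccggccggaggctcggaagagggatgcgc
Foxc1: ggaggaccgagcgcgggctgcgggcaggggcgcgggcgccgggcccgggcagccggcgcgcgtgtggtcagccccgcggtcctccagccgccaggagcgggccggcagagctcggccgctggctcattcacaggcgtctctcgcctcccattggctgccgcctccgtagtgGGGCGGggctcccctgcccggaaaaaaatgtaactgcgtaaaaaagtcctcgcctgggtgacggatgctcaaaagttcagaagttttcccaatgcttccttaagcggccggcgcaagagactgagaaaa
The Foxf2 window holds 2 GC boxes and the Foxc1 window 1, and 35.7% of all 32851 RefSeq windows of this length hold at least 1. Their GC content was 71.3% and 67.3%, against a median of 52.7% over all windows. The letters TAAACA, the core of a forkhead binding site, and their reverse complement TGTTTA were found 0 times in both windows, so no match overlaps a GC box, and at least once in 13.4% of all windows. These are descriptions of the windows only. No probe sequence was read, so the part of each transcript that a probe set sees is not known here.

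Signal is given as MAS5 intensity, the linear brightness of a probe set in the deposited table, where every array has the same trimmed mean of 100. Detection calls were not used here, so the floor of the array was described in 2 ways. The first is the percentile of a probe set among all probe sets of its array. The second is a set of 39 probe sets of 25 genes of testis, ovary, kidney, pancreas, liver, stomach, seminal vesicle and mammary gland. Their median intensity was 1.56 to 3.40, depending on the array. Their highest was 14.4, 15.2 and 9.48 on wild-type arrays 1 to 3. On the mutant arrays it was 18.75, 20.15 and 21.3, a Prm1 probe set each time. Exceeding every organ gene thus took a brighter reading on a mutant array. The array medians ran from 23.1 to 23.6 for wild type and from 24.3 to 25.5 for mutant, so dim signals read a little higher in mutant brains. In the 2nd of 5 equal groups of probe sets by mean signal, from 4.42 to 13.2, the median log2 difference was 0.07 and 65.6% of probe sets read higher in the mutant. Mutant array 2 stood apart in sex-linked transcripts, with Xist at 13.0 and the Y-linked Eif2s3y at 260, where the other 5 arrays read at least 1002 and at most 2.12. Skeletal muscle markers summed to 1139 on mutant array 3 and at most 98.8 elsewhere, and pituitary markers to 1907 on wild-type array 3 and at most 266 elsewhere. Differences were fitted over all 45037 probe sets with limma on log2(intensity + 16), and p-values were adjusted over the 27022 brighter ones by Benjamini-Hochberg. Of these, 0.389% passed an adjusted p of 0.05, 0.366% being higher and 0.0222% lower in the mutant, and 0 of the 8 forkhead probe sets that passed the signal filter did. At an unadjusted p under 0.05, among these 8 there was 1 higher and 0 lower, against 7.76% and 5.79% of all tested probe sets. Without overlap between the groups, 1 of the 8 was higher and 0 lower, against 10.9% and 9.38%.

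**Figure D1:**
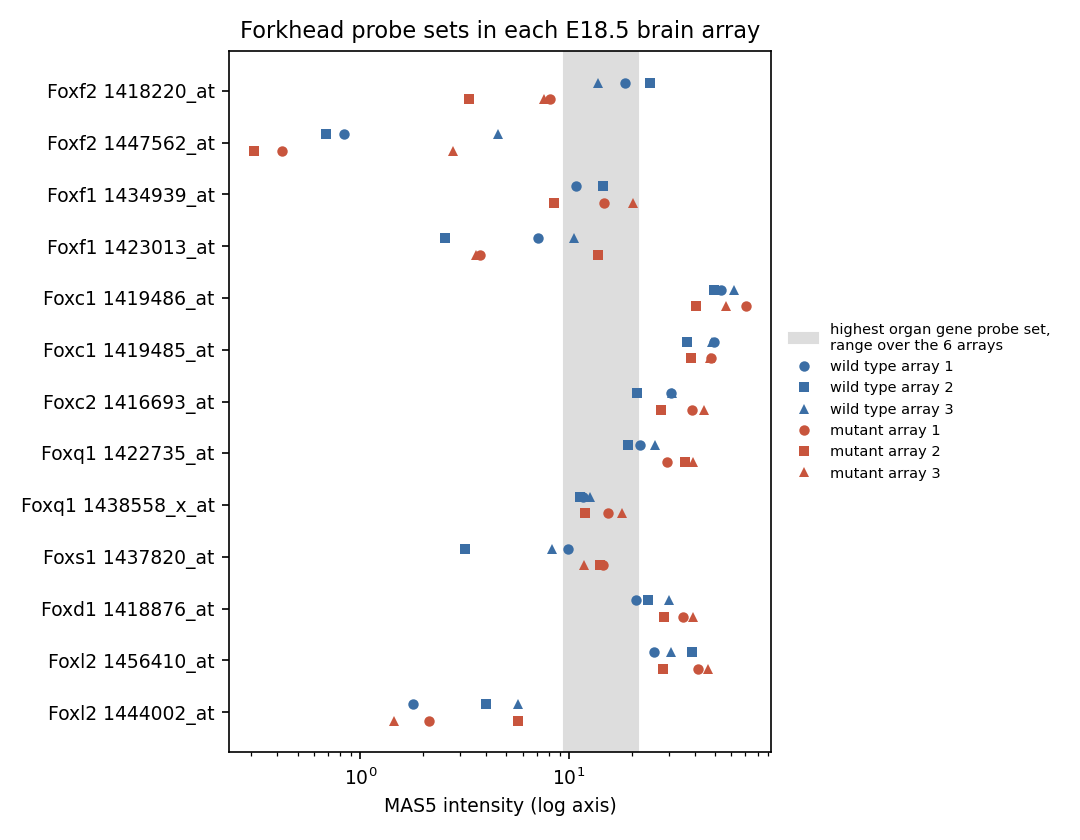
MAS5 intensity (x, log axis) of the 13 forkhead probe sets (y) on the 3 wild-type arrays (blue) and the 3 mutant arrays (red), 1 point per array, with the array number given by the symbol. The grey band spans the highest organ gene reading over the 6 arrays, 9.48 to 21.3. The Foxf2 probe set 1418220_at lies lower in all 3 mutant arrays, and both Foxc1 probe sets overlap between the groups.

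Foxf2 was read by 2 probe sets, and the brighter one, 1418220_at, was lower in each mutant brain than in any wild-type brain. It read 18.6, 24.4 and 13.8 in wild-type arrays 1 to 3 and 8.06, 3.31 and 7.57 in the mutant arrays. In each wild-type brain it lay above all 39 organ gene probe sets, and in the mutant brains it lay above 32, 19 and 32 of them. Its percentile on the array went from 46.0, 50.8 and 40.9 to 28.2, 15.7 and 28.1. Thus the wild-type signal stood just over the floor and the mutant signal stood within the range of genes of other organs. The probe set was not placed against the mutated allele, so this reading does not check the labels. The log2 difference, mutant minus wild type, was -0.64 ± 0.15 (SE, n = 3 per group), with a 95% confidence interval from -0.99 to -0.29.

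This Foxf2 probe set was under the signal filter, so it has no adjusted p in the main test. Without the filter, limma gave an adjusted p of 0.173 over all 45037 probe sets. An exact two-sided permutation test over the 6 samples gave p = 0.1, the smallest that 3 against 3 allows, so no exact test of these groups can reach 0.05. Over all 45037 probe sets, 6.83% were lower in the mutant without overlap between the groups, and 4.19% were lower at an unadjusted p under 0.05. The Foxf2 difference had rank 51 from the lowest of all 45037, and 638 probe sets had a smaller p than its 0.00245. The difference did not rest on 1 array, since leaving out each array in turn gave -0.75 to -0.53.

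The other Foxf2 probe set, 1447562_at, was at the floor in both groups. It read 0.834, 0.686 and 4.55 in wild-type brains and 0.421, 0.309 and 2.77 in mutant brains, and it was above 12 to 27 and 1 to 22 of the 39 organ gene probe sets. Its groups overlapped, with a log2 difference of -0.07 ± 0.11 (SE). Pericyte markers were measured beside Foxf2. The summed intensity of 12 pericyte genes was 2978 to 3351 in wild-type and 3145 to 3281 in mutant brains, with 10 of the 12 above every organ gene probe set on all arrays. These sums overlapped, and so did those of the 11 genes without Zic1, the brightest, at 1505, 1821 and 1853 in wild-type and 1531, 1689 and 1424 in mutant brains. Of the 11 pericyte genes past the filter, 0 passed the threshold in limma. At an unadjusted p under 0.05, Zic1 was higher, and Atp13a5 and Pdgfrb, the receptor that recruits pericytes, were lower, at -0.51 and -0.25. Over all 12573 genes past the filter, each read by its brightest probe set, this p was met on the higher side by 7.56% and on the lower side by 6.01%. The names and the sum without Zic1 were picked with their values in view. The part of pericyte content in the Foxf2 reading was not tested.

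Foxf1, the closest relative of Foxf2 and a regulator of lung and gut mesenchyme, read within or near the floor. Probe set 1434939_at gave 10.8, 14.5 and 14.6 in wild-type and 14.7, 8.47 and 20.2 in mutant brains. It exceeded all organ gene probe sets on 1 wild-type and 0 mutant arrays, but the highest of these was brighter on the mutant arrays. Of the 39 it lay above 37, 38 and 39 in wild-type and 38, 31 and 38 in mutant brains. The groups overlapped widely. The log2 difference was 0.04 ± 0.16 (SE) and the 95% interval ran from -0.33 to 0.41 (limma adjusted p = 0.939), or a fold from 0.796 to 1.33 on this scale. Probe set 1423013_at gave 7.12, 2.56 and 10.6 in wild-type and 3.76, 13.8 and 3.59 in mutant brains, with its highest value on mutant array 2. Its difference of 0.0053 turned to -0.19 without that array, and the signs of both Foxf1 differences turned with median centring and with quantile normalization.

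Foxc1, which patterns meninges and the eye and is needed in mural cells, had the clearest signal against the floor. Both of its probe sets exceeded every organ gene probe set on all 6 arrays, at percentiles from 57.0 to 67.6. Probe set 1419486_at read 53.3, 49.4 and 61.7 in wild-type and 70.4, 40.7 and 56.7 in mutant brains. Probe set 1419485_at read 49.3, 36.7 and 48.6 in wild-type and 47.8, 38.4 and 47.5 in mutant brains. For the first the wild-type values lay inside the mutant range, and for the second the mutant values lay inside the wild-type range. The log2 differences were 0.0056 ± 0.16 and -0.0038 ± 0.14 (SE), with 95% intervals from -0.36 to 0.37 and from -0.31 to 0.30. As folds on the log2(intensity + 16) scale, the intervals ran from 0.779 to 1.29 and from 0.807 to 1.23. The sign of the first turned with median centring and quantile normalization, and the sign of both turned when single arrays were left out.

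Foxc2, the partner of Foxc1 in mesenchyme and a regulator of lymphatic vessels, lies on the chromosome of Foxf1. Its single probe set, 1416693_at, read 30.7, 21.1 and 31.2 in wild-type and 38.9, 27.7 and 44.5 in mutant brains, all above the organ genes. Mutant arrays 1 and 3 were above the wild-type range, and mutant array 2 was inside it. The means were 27.7 ± 5.70 and 37.0 ± 8.53 (SD, n = 3 each). The log2 difference was 0.28 ± 0.17 (SE), with a 95% interval from -0.10 to 0.65 (limma adjusted p = 0.510). It was 0.41 without mutant array 2, 0.17 without mutant array 3 and 0.16 without wild-type array 2, and it passed in none of these cases.

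Foxq1, a forkhead gene known from brain endothelium and from epithelia, is the direct neighbour of Foxf2. Its brighter probe set, 1422735_at, read 21.8, 19.1 and 25.9 in wild-type and 29.6, 35.9 and 39.4 in mutant brains. It was above all organ gene probe sets on all 6 arrays, and every mutant brain read higher than every wild-type brain. The means were 22.2 ± 3.40 and 35.0 ± 4.98 (SD, n = 3 each), and the exact permutation test gave p = 0.1. The log2 difference was 0.41 ± 0.14 (SE), with a 95% interval from 0.10 to 0.73, an unadjusted limma p of 0.0153 and an adjusted p of 0.247 over all tested probe sets. Of the tested probe sets, taken over all signal levels, 3.16% had a larger positive difference. It was 0.35 to 0.49 with each array left out in turn, and the interval included 0 without wild-type array 2 (0.35, from -0.014) or mutant array 3 (0.35, from -0.0023).

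The second Foxq1 probe set, 1438558_x_at, read 11.7, 11.3 and 12.6 in wild-type and 15.4, 11.9 and 18.0 in mutant brains. The suffix marks probes that can match other transcripts, and the signal exceeded all organ genes on 1 array only. Of the 39 organ gene probe sets it lay above 37, 37 and 39 in wild-type and 38, 33 and 38 in mutant brains. Mutant array 2 fell inside the wild-type range, where the brighter probe set had read 35.9 on the same array. The log2 difference was 0.15 ± 0.13 (SE; limma adjusted p = 0.634). It was 0.089 without mutant array 3 and 0.082 with quantile normalization. The wild-type mean, 11.9, was under the filter of 13.2, which the probe set passed through its mutant readings, so it gives no support to the brighter probe set.

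Markers of endothelium, where Foxq1 is known, were set beside it. Their 12 measured genes summed to 2081 to 2172 in wild-type and 1826 to 1882 in mutant brains, without overlap, all 12 being above the organ genes on every array. None of the 12 passed the threshold in limma, with 4 reading higher and 8 lower. An unadjusted p under 0.05 was found for 3 that were lower and 0 that were higher, beside the 6.01% and 7.56% over all genes. These 3, named after their values were seen, were the tight junction gene Cldn5 at -0.43, the VEGF receptor gene Kdr at -0.41 and the transporter gene Slco1c1 at -0.75. The sums of the other 9 overlapped, at 1269, 1098 and 1285 in wild-type and 1298, 1251 and 1180 in mutant brains. The 3 were left out because of their differences, so this overlap says nothing about endothelium. Slc2a1 alone had a wild-type mean of 676 in this sum. Marker sums of some other cell types did not overlap either, in the opposite direction. Neuron markers summed to 13880 to 13960 in wild-type and 14140 to 14700 in mutant brains, radial glia and astrocyte markers to 7100 to 7668 and 8006 to 8349, and choroid plexus markers to 5886 to 6536 and 6610 to 6962. The brightest genes weigh most in these sums. Ttr of choroid plexus and Fabp7 of radial glia had wild-type means of 6069 and 4666. Past the filter, 5 neuron markers read higher and 3 lower. For radial glia and astrocytes it was 4 and 3, and for choroid plexus 3 and 0. Of these Vim passed the threshold (0.45, limma adjusted p = 0.0436), while Nes read lower at -0.30, both named with their values in view. Whether endothelial content has a part in the Foxq1 reading was not tested.

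Foxs1, which is made in pericytes and other cells around vessels, was dim in every brain. Its probe set 1437820_at read 9.89, 3.16 and 8.26 in wild-type and 14.5, 13.99 and 11.8 in mutant brains. It exceeded the highest organ gene on 0 arrays. Of the 39 organ gene probe sets it lay above 35, 24 and 37 on the wild-type arrays. On each mutant array it lay above 38, where only a Prm1 probe set was brighter. The groups did not overlap. The log2 difference was 0.36 ± 0.14 (SE), with a 95% interval from 0.042 to 0.68 and an exact permutation p of 0.1. Without a filter the limma adjusted p was 0.384. Of all 45037 probe sets 10.5% were higher in the mutant without overlap. The interval included 0 with median centring (0.31, from -0.0037), quantile normalization (0.29, from -0.019) and an offset of 1 (0.94, from -0.0091). It also did without wild-type array 2, the dimmest reading (0.23, from -0.086), mutant array 1 (0.33, from -0.041) or mutant array 2 (0.35, from -0.032).

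Foxd1, known from kidney stroma, retina and the embryonic forebrain floor, was above the organ genes on all arrays. Its probe set 1418876_at read 21.0, 23.8 and 30.1 in wild-type and 35.0, 28.4 and 39.3 in mutant brains. Only mutant array 2 entered the wild-type range. The log2 difference was 0.29 ± 0.15 (SE), with a 95% interval from -0.036 to 0.62 (limma adjusted p = 0.421). It was 0.38 without mutant array 2 or wild-type array 3, and 0.22 without mutant array 3 or wild-type array 1.

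Foxl2, a regulator of ovary, eyelid and pituitary development, had probe sets that disagreed in level. Probe set 1456410_at read 25.5, 39.0 and 30.9 in wild-type and 41.5, 28.3 and 46.1 in mutant brains, above all organ genes on all arrays. Its groups overlapped, with a log2 difference of 0.19 ± 0.17 (SE; limma adjusted p = 0.671). It was 0.33 without mutant array 2, 0.29 without wild-type array 2, 0.089 without mutant array 3 and 0.092 without wild-type array 1. Probe set 1444002_at read only 1.78 to 5.68 in wild-type and 1.44 to 5.69 in mutant brains, which is inside the organ gene range. Pituitary markers were highest on wild-type array 3, where the brighter Foxl2 probe set read 30.9, the middle value of its group. Their next highest sum, 266, was on mutant array 3, where that probe set had its highest reading, 46.1. The part of pituitary content in the Foxl2 readings was not tested.

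**Figure D2:**
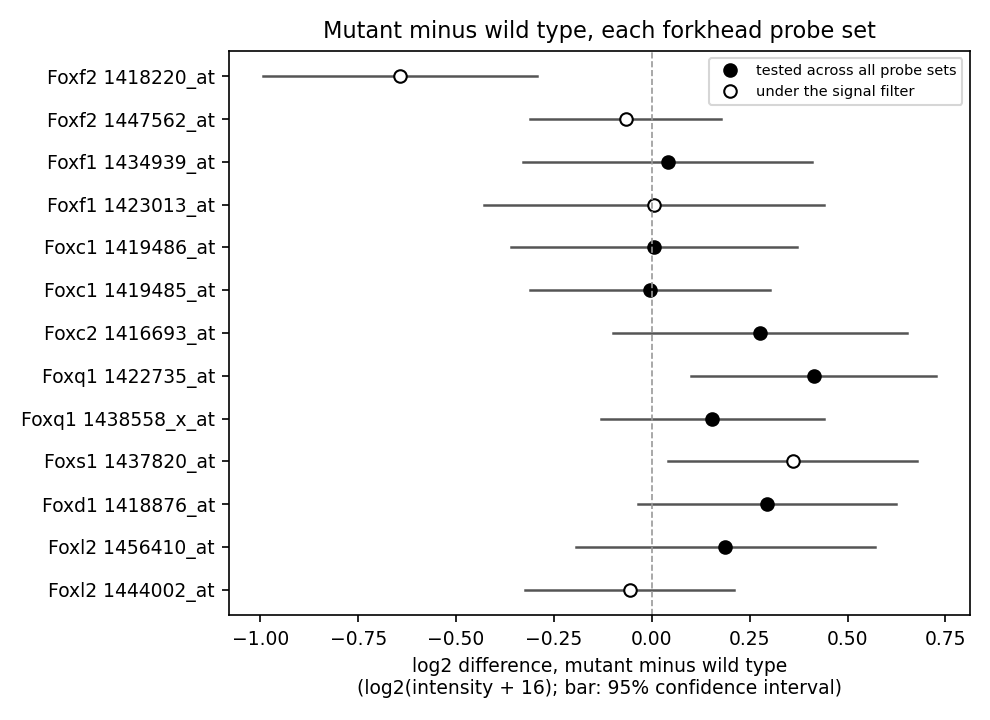
Log2 difference, mutant minus wild type (x, on the log2(intensity + 16) scale) of each forkhead probe set (y) with its 95% confidence interval from limma, n = 3 per group. Filled points passed the signal filter and open points did not. The intervals of Foxf2 1418220_at, Foxq1 1422735_at and Foxs1 1437820_at leave out 0 in this fit, those of Foxq1 and Foxs1 not in all alternatives, and none of the filled points passed an adjusted p of 0.05.

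Counted together, 9 of the 13 forkhead probe sets read higher and 4 lower in the mutant. Of all fitted probe sets 53.8% read higher. The groups did not overlap for 2 probe sets that were higher, those of Foxq1 and Foxs1, and for 1 that was lower, that of Foxf2. Over all 45037 probe sets these shares were 10.5% higher and 6.83% lower, so 2 and 1 of 13 are not a result about the forkhead genes. At an unadjusted p under 0.05 there were the same 2 higher and 1 lower, against 7.27% higher and 4.19% lower over all. The median log2 difference of the 13 was 0.04, beside 0.014 over all probe sets. Of the 13 probe sets, 8 passed the signal filter and 6 exceeded every organ gene probe set on all arrays, and these 6 belong to Foxc1, Foxc2, Foxq1, Foxd1 and Foxl2.

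**Figure D3:**
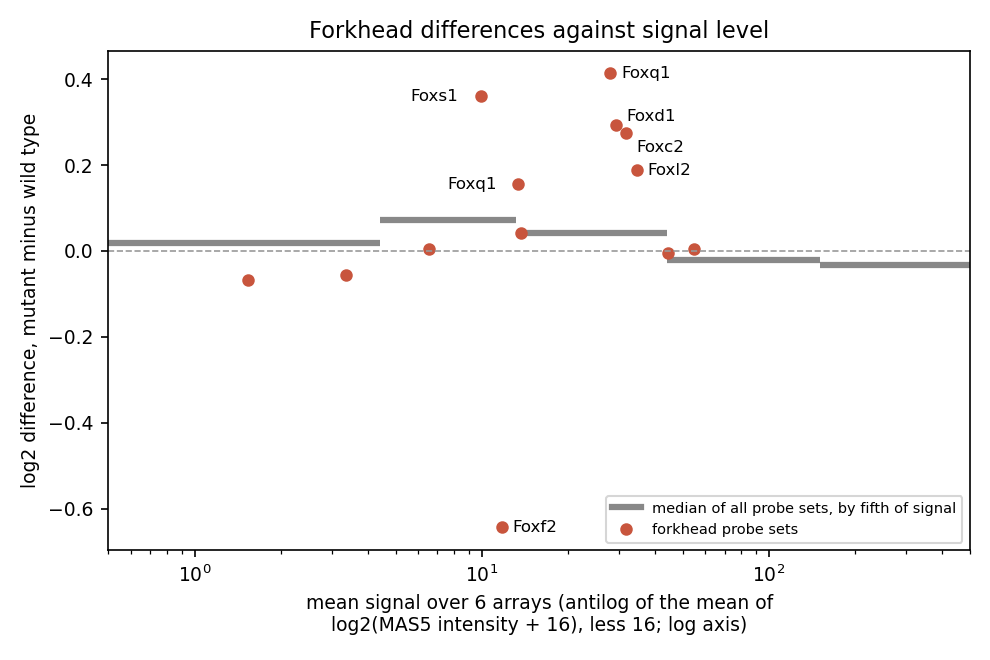
Log2 difference, mutant minus wild type (y), of the 13 forkhead probe sets (red points, the 7 farthest from 0 named) against mean signal (x, log axis). Grey bars give the median difference of all probe sets in each of 5 equal groups by signal. These medians run from 0.07 in group 2 to -0.03 in group 5, the brightest, and Foxf2 at -0.64 lies below the bar at its signal.

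Among the mutant brains, many forkhead readings were lowest on array 2, a pattern noticed after the values were seen. This held for 9 of the 13 probe sets and for 7 of the 8 past the filter, the exception among the 8 being Foxq1 1422735_at. Over all 27022 tested probe sets 30.8% read lowest there. The order array 3, array 1, array 2 from the highest was found in 6 of the 13 and in 5 of the 8, against 15.6% of tested probe sets. These 5 are probe sets of Foxf1, Foxc2, Foxq1, Foxd1 and Foxl2. Mutant array 2 is the array with Xist at 13.0 and Eif2s3y at 260, and mutant array 3 is the one with skeletal muscle markers at 1139. The part of these differences in the forkhead readings was not tested.

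Markers of meninges and fibroblasts had this order as a sum, and 7 of 14 had it singly. The order was not particular to them. Sums of skeletal muscle markers (98.8, 97.7 and 1139 on mutant arrays 1 to 3) and pituitary markers (50.35, 38.3 and 266) had it too. So did the sum of 10 genes listed around Foxf1 and Foxc2 (5277, 5106 and 5633), while the marker sums of the other cell types did not. The summed intensity of the 14 genes was 3940, 3624 and 4294 on mutant arrays 1 to 3 and 3863, 3877 and 3693 on wild-type arrays 1 to 3. In 10 of the 14 mutant array 2 was the lowest of the mutant arrays. Of these genes 13 were above every organ gene on all arrays, while Twist1 read 3.57 to 11.2 and was in the floor range. The collagen gene Col1a1 read 140, 126 and 198 in the mutant brains, and Dcn, a matrix proteoglycan, read 413, 285 and 415. Array 2 was not the lowest for the other 4, which are the transporter genes Slc6a13 at 70.8, 129 and 101 and Slc22a6 at 47.1, 54.3 and 45.7, the transcription factor gene Tbx18 at 81.9, 83.0 and 72.8, and the receptor gene Pdgfra at 291, 342 and 344. These examples were chosen after the values were seen. Among the 3 wild-type brains the marker sum ran array 2, array 1, array 3 from the highest. Foxf2 1418220_at had this order there too, at 18.6, 24.4 and 13.8, though it did not follow the sum in the mutant brains. The other forkhead probe sets did not have the order of the sum in wild type. None of the 13 markers past the filter passed the threshold in limma, 0 had an unadjusted p under 0.05, and their median log2 difference was 0.07. The part of meningeal content in the forkhead readings was not tested.

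**Figure D4:**
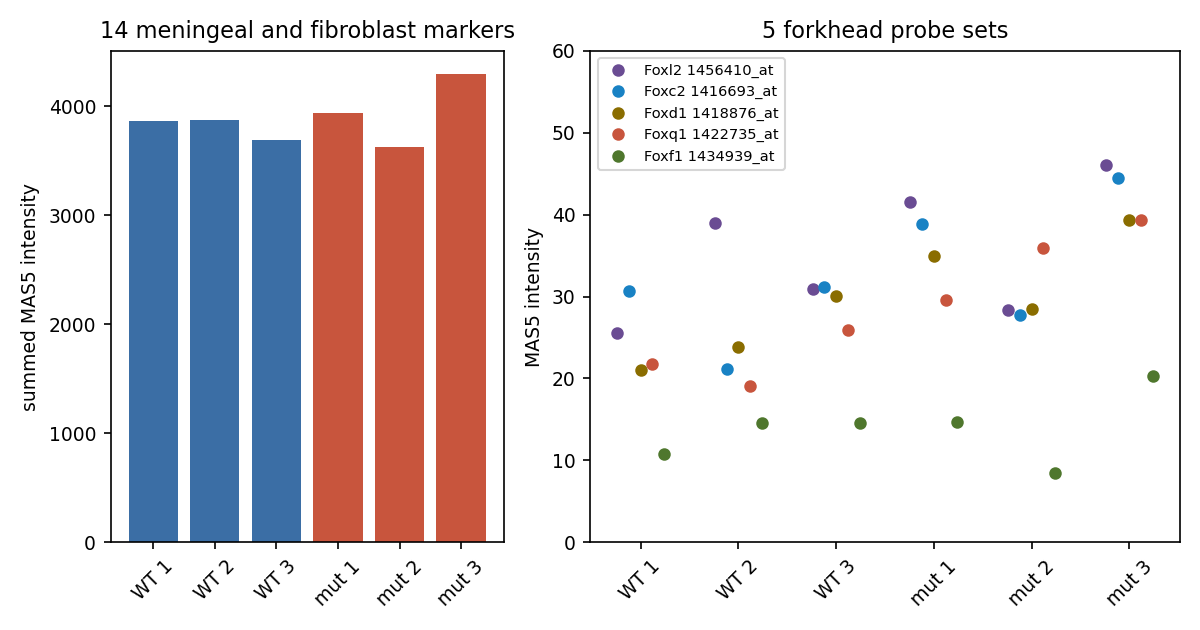
Left, summed MAS5 intensity of 14 meningeal and fibroblast markers on each array, with wild type (WT) in blue and mutant (mut) in red. Right, MAS5 intensity of 5 forkhead probe sets on the same arrays, 1 colour per probe set and points set apart sideways for legibility. Mutant array 2 has the lowest marker sum of the mutant arrays (3624) and the lowest Foxl2, Foxc2, Foxd1 and Foxf1 readings among them, while Foxq1 1422735_at is lowest on mutant array 1.

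Other forkhead genes gave a background from the same family. Of 36 listed, 29 had a singly named probe set and 18 passed the filter, of which 0 passed the threshold in limma, with 9 reading higher and 9 lower and a median log2 difference of -0.018. Over all 12573 genes past the filter, each read by its brightest probe set as in these lists, 0.223% passed. At an unadjusted p under 0.05 there was 1 of the 18, which was higher, beside 7.56% higher and 6.01% lower of the 12573 genes. Of all tested probe sets 10.9% were higher without overlap. The 1 was Foxm1, a regulator of cell division. It read 27.4, 33.4 and 31.0 in wild-type and 45.4, 57.1 and 44.2 in mutant brains, without overlap, with a log2 difference of 0.47 ± 0.13 (SE; adjusted p = 0.173). Foxd2, a mesenchymal relative of Foxd1, had a difference of 0.29 and Foxp4, a neural member, of -0.19 (adjusted p = 0.437 and 0.604).

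Genes next to the forkhead genes on the chromosome were also not past the threshold. Of 7 listed genes around Foxf2, Foxc1 and Foxq1, 5 were measured and 3 passed the filter. Exoc2, a subunit of the exocyst that tethers vesicles, read 297, 324 and 324 in wild-type and 263, 279 and 282 in mutant brains, a log2 difference of -0.19 ± 0.071 (SE; unadjusted p = 0.0263, limma adjusted p = 0.295), the 1 of the 3 with an unadjusted p under 0.05. Gmds, the enzyme that starts GDP-fucose synthesis, had 0.085 and the phosphatase gene Dusp22 had 0.078. Of 10 genes listed around Foxf1 and Foxc2, all were measured, 8 passed the filter and 0 passed the threshold. Map1lc3b, an autophagy gene, was the 1 with an unadjusted p under 0.05, with a log2 difference of 0.26 (limma adjusted p = 0.180). Emc8, a subunit of the membrane insertion complex of the endoplasmic reticulum, followed at -0.21 and the F-box gene Fbxo31 at -0.13. The median differences were 0.08 over the 3 genes and -0.0081 over the 8, beside -0.0077 over the 12573 genes.

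Foxf and Foxc genes are known to act with Hedgehog and TGF-beta signals in mesenchyme. Of 25 listed genes of these pathways 24 were measured and passed the filter. Of these, 1 rose, 0 fell and 23 did not pass, beside 0.223% passing of all 12573 genes. The 1 was Itgb8, an integrin subunit that activates latent TGF-beta, at 192, 207 and 211 in wild-type and 338, 342 and 323 in mutant brains (limma adjusted p = 0.0155). No gene of the list passed when wild-type array 1, wild-type array 2, mutant array 2 or mutant array 3 was left out, or in a fit that had no variance trend. At an unadjusted p under 0.05 there were 3 higher and 1 lower, with a median log2 difference of 0.02. Beside Itgb8 these were its partner subunit gene Itgav at 0.32, the signal transducer gene Smad3 at 0.28 and, lower, the Hedgehog co-receptor gene Gas1 at -0.29, named after their values were seen.

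The genes whose values over the 6 arrays were most like those of Foxf2 1418220_at were Bag5, a co-chaperone gene, Eif2b3, a translation factor subunit gene, and Hs2st1, a heparan sulfate sulfotransferase gene. They had the highest Pearson correlations among 12573 genes past the filter, 0.997, 0.996 and 0.991 over 6 arrays, with Spearman values of 1, 1 and 0.943. Bag5 read 288, 298 and 279 in wild-type and 261, 247 and 258 in mutant brains. As the genes were picked for this likeness from so many, the correlations are a description only. None of the 3 was among the top 3 with an offset of 1, and by Spearman 26 genes, Bag5 and Eif2b3 among them, shared the highest value. Their log2 differences were small, from -0.18 to -0.17. Among the other forkhead genes of the 8 that passed the filter, each read by its brightest probe set, the highest correlation was 0.124. Foxs1 was under the filter and was not included.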

How the data were processed

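Whole-brain RNA of 6 samples, 3 per genotype, was measured on 1 array each, and groups and replicate numbers come from the titles. The deposited values are MAS5 intensities, per the submitters' processing notes, and no version is named. After trimming 2% of probe sets at either end, each column of deposited intensities averages 100, so no further normalization was applied. Such scaling hides a change in total RNA.

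Of 45101 probe sets, 64 controls were left out. Names come from the platform annotation: 34945 probe sets had 1 symbol, 932 several and 9160 none listed. Values were analysed as log2(intensity + 16) in R 4.3.3 with limma 3.58.1 (lmFit and eBayes with a variance trend over 45037 probe sets, two-sided). Benjamini-Hochberg adjustment covered the 27022 probe sets whose mean reached the 40th percentile (about 13.2), with a threshold of 0.05. A list gene was represented by its brightest singly named probe set. The fit was tested on simulated data. Precision is limited by the 6 arrays.

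Named were every probe set of the 8 genes, the 3 genes most like Foxf2, and, per list, members past the threshold or up to 3 with the smallest p. Cell type markers were outside this rule and were named with their values in view. The genes, lists and tests were chosen with earlier results of these data known. Same-numbered arrays had correlations of their deviations from the group means of 0.186, 0.134 and 0.0917, against -0.19 to 0.052 for the other pairs. The titles do not say that the numbers pair the samples, so the main fit used no pairing.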

Additional observations from a re-analysis of the deposited data

How the results depend on the processing

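The 13 forkhead differences were recomputed under up to 15 alternatives each, 190 in all. Of these, 169 kept the sign and the side of the threshold, 21 turned the sign and 0 brought a probe set past the threshold. In 71 of the 190 the probe set was under the filter and could not be called, so this says something of the other 119 alone. Foxf2 1418220_at stayed negative in all 14 of its alternatives. The offset sets its size, from -1.49 with an offset of 1 to -0.24 with 64. The signs that turned were all of differences near 0. Foxc1 1419486_at gave -0.011 with quantile normalization and -0.049 with median centring. Foxf1 1434939_at gave -0.026 and -0.013, and Foxf1 1423013_at -0.052 and -0.049, with -0.016 at an offset of 1. With 1 array left out in turn the ranges were -0.14 to 0.17 for Foxc1 1419486_at, -0.10 to 0.071 for Foxc1 1419485_at, -0.093 to 0.19 for Foxf1 1434939_at, -0.19 to 0.12 for Foxf1 1423013_at, -0.13 to 0.032 for Foxf2 1447562_at and -0.15 to 0.011 for Foxl2 1444002_at.

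The 105 probe sets called over the whole table became 181 with an offset of 1, 64 with an offset of 64, 52 without a filter, 167 with a filter at the 60th percentile, 56 with median centring, 0 without the variance trend, 116 with quantile normalization and 12 with 1 probe set per gene. It became 225 with the variance prior taken from tested probe sets only, an alternative chosen after seeing the data. With 1 array left out it ran from 0 to 34. The cause was not tested, beyond the fewer arrays or probe sets. With the replicate number as a block it was 220, while the forkhead probe sets kept their calls, and each array correlated best with its own number, a hint from the data and not from the design. The highest reading of the 8 genes was 70.4, so signal over background limits their values.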

Other observations

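Foxl2os, a transcript antisense to Foxl2, has a probe set of its own and was looked up after the values were seen. It read 9.24, 10.9 and 21.1 in wild-type and 8.85, 8.69 and 17.0 in mutant brains. Its groups overlapped, with a log2 difference of -0.10 ± 0.18 (SE, n = 3 per group), and it was highest on array 3 of each group, where the brighter Foxl2 probe set read 30.9 and 46.1. The pituitary marker sums were also highest on these arrays, at 1907 and 266, and their part in the Foxl2os reading was not tested.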
